A study of Danio rerio with 2 samples.

Results

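The cells described here are skor2-negative *evx2* neurons, the glutamatergic V0v interneurons of the zebrafish spinal cord in which no transcript of *skor2* was detected. A cell was taken when it held at least 1 unique molecular identifier (UMI, a tag that marks a single captured mRNA molecule) of *evx2*, at least 1 of the vesicular glutamate transporter genes *slc17a6a* and *slc17a6b* together, and 0 of *skor2* (listed as zgc:153395), *slc6a5*, *slc6a1b*, *chata* and *slc18a3a*. The last 4 genes encode the glycine transporter of glycinergic neurons, a GABA transporter, choline acetyltransferase and the vesicular acetylcholine transporter. Of the 8127 cells that passed the quality limits, 700 (8.61%) met this rule, 289 of 3571 in library 1 (8.09%, exact 95% CI 7.22 to 9.04) and 411 of 4556 in library 2 (9.02%, CI 8.21 to 9.89). These intervals, like all others given for shares of cells, cover counting error only.

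The study sorted EGFP-positive cells by flow cytometry out of embryo trunks at 48 hpf, fixed them in methanol and profiled them by droplet single-cell RNA-seq. All embryos came from crosses between fish heterozygous for *evx1i232* and *evx2sa140* that carried *Tg(evx1:EGFP)SU2*, whose *evx1* regulatory sequence drives EGFP in V0v cells and also, ectopically, in notochord. Wild-type, heterozygous and mutant embryos were therefore pooled before the sort, and the genotype of a cell is not known. The 2 libraries carry the titles MUTSU2_OtherGFP-G8 (library 1) and MUTSU2_AllGFP-S5 (library 2), which are not explained further, and both were sorted from untreated embryos.

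These neurons were set beside other cells of the same libraries. The skor2-positive *evx2* neurons (211 and 182 cells in libraries 1 and 2) met the same rule but for at least 1 *skor2* UMI. The *evx2* neurons with *slc6a5* (56 and 106 cells) met it but for at least 1 *slc6a5* UMI, so that they held transcripts of a glutamate and of a glycine transporter. The hmx glycinergic cells (164 and 174 cells) held *hmx2* or *hmx3a* and *slc6a5* and none of *evx2*, *slc17a6a*, *slc17a6b*, *skor2*, *slc6a1b*, *chata* and *slc18a3a*. Fibroblast-like cells (76 and 796 cells, collagen genes above neuronal genes) gave the background of free RNA. Median depth per cell was 4316 and 4962 UMIs in skor2-negative neurons, 4382 and 4981.5 in skor2-positive neurons, 4641.5 and 5123 in neurons with *slc6a5*, 3209 and 3831.5 in hmx glycinergic cells and 5135 and 5453.5 in fibroblast-like cells. Levels are given as UMIs of a gene per 1000000 UMIs of the class (CPM), always for library 1 and then library 2. Library 1 held 18908819 UMIs in 4373 deposited cells and library 2 held 34071583 in 6223. The libraries had 3 cell barcodes in common, and none of them lay on a skor2-negative neuron in both libraries.

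V0v interneurons arise from the ventral spinal cord, are defined by the homeodomain transcription factors Evx1 and Evx2, and are excitatory cells that send commissural axons across the midline. They take part in the spinal circuits for locomotion, and Evx1 and Evx2 are known to be needed for their glutamatergic identity. Skor2 is a nuclear co-repressor, and glutamatergic identity itself rests on the vesicular transporters that load glutamate into synaptic vesicles.

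The cells carried the markers by which they were labelled. Because *evx2* and the *slc17a6* genes chose the cells, their levels are given as a description with no test. In library 1, 134 of the 289 cells held a single *evx2* UMI, 87 held 2 and 68 (23.5%) held 3 or more, with a maximum of 9. In library 2 these numbers were 114, 103 and 194 of 411 (47.2%), with a maximum of 15, so library 2 had more cells with several *evx2* transcripts. Most cells owed their glutamatergic call to *slc17a6a*. It was the only transporter gene detected in 213 cells of library 1 (73.7%) and 261 of library 2 (63.5%), *slc17a6b* was the only one in 39 (13.5%) and 75 (18.2%), and both were found in 37 (12.8%) and 75 (18.2%). The remaining marker, *esrrb*, an orphan nuclear receptor gene of the estrogen-related family that the rule did not use, was detected in 75.1% and 84.4% of the cells, against 28.4% and 23.1% of skor2-positive neurons and 3.95% and 1.63% of fibroblast-like cells. At least 3 of 6 pan-neuronal markers were found in 271 cells (93.8%) in library 1 and 380 cells (92.5%) in library 2.

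A 0 for *skor2* in a cell of this depth does not show that the gene was off. To see whether a 0 missed transcripts, the UMIs of each cell were divided at random into equal parts, the classes were chosen on one part and the genes were read in the other. Of the cells chosen as skor2-negative in this way, 27 of 160 in library 1 (16.9%, CI 11.4 to 23.6) and 19 of 217 in library 2 (8.76%, CI 5.35 to 13.3) held a *skor2* UMI in the other part, against 80.8% and 79.5% of the skor2-positive neurons and 2.63% and 0.503% of fibroblast-like cells. A minority of the cells chosen in this way thus held *skor2* transcripts. The choice and the reading each rested on fewer UMIs than the rule itself, so the share of such cells among the 700 was not measured. For *slc6a5* the same reading gave 3.75% and 3.69% and for *slc6a1b* 1.25% and 4.61%. *evx2* itself was read again in 53.1% and 72.4% of the cells and *slc17a6a* in 40.0% and 39.6%.

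Cells just outside the rule differed in degree. With exactly 1 *skor2* UMI (56 and 50 cells), *esrrb* was found in 46.4% and 44.0%, and with 3 or more *skor2* UMIs (125 and 113 cells) in 20.0% and 12.4%. Inside the rule, *esrrb* was found in 69.4% and 82.5% of the cells with 1 *evx2* UMI and in 80.0% and 85.2% of those with 2 or more. Cells that lacked *evx2* but met the rest of the rule (203 and 227) held *esrrb* in 54.2% and 35.7%, and cells that lacked both *slc17a6* genes (399 and 341) in 68.4% and 72.4%. The *esrrb* share was thus lower in cells with 1 *skor2* UMI than inside the rule, and lower again in cells with 3 or more, in both libraries.

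Shares of cells with a gene are of unthinned cells unless the text says otherwise. Here they were compared after each cell had been thinned to 2000 UMIs, with shallower cells left out. On that scale *otpa*, a homeobox gene, was found in 85.0% and 88.8% of skor2-negative neurons and 42.1% and 40.9% of skor2-positive neurons (unthinned 91.3% and 94.2% against 55.9% and 56.6%). *bcl11ba*, a zinc finger transcription factor gene, was found in 35.5% and 58.2% against 6.22% and 5.52% (unthinned 46.4% and 67.2% against 11.8% and 9.89%). The homeobox gene *onecut1* ran the other way, with 24.0% and 13.7% against 72.2% and 68.5% (unthinned 34.3% and 20.0% against 88.2% and 88.5%). With 2 libraries an exact permutation test of such shares cannot go below p = 0.333, so they are given as values only.

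**Figure D1:**
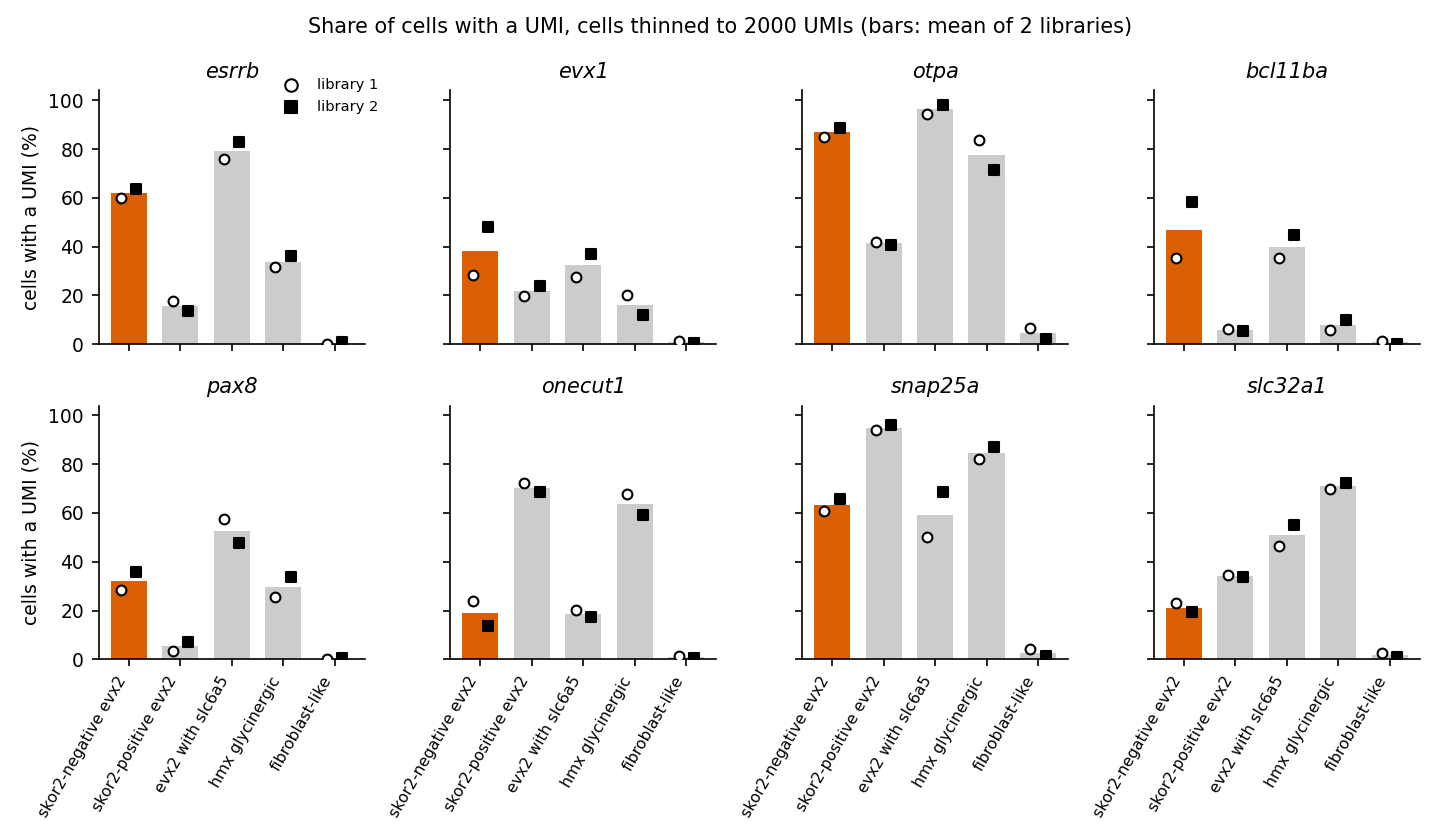
Share of cells with at least 1 UMI (%, cells thinned to 2000 UMIs) of selected genes in skor2-negative neurons and the other classes, with bars for the mean of the 2 libraries and points for each library. *bcl11ba* stood at 35.5% and 58.2% in skor2-negative neurons, against 6.22% and 5.52% in skor2-positive neurons, while *snap25a* stood at 61.0% and 65.8%, against 93.8% and 96.1%.

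For tests, UMIs were summed per library and class, and each gene was tested across the sums with edgeR (quasi-likelihood test with the library as a term, 4 classes in 1 fit, Benjamini-Hochberg adjustment over all genes tested, threshold 0.05). The comparisons below share the sums of skor2-negative neurons. A log2 change is given with its standard error (SE) from this fit, and a positive value means higher in skor2-negative neurons. Because the library is a term, p-values and SEs measure how far class differences varied between these 2 libraries, not the shift between libraries. The estimate of that spread draws on all 4 classes and on other genes. The study captured cells of several separate sorts, but it does not say which sorts or which pools of embryos gave each library.

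Skor2-negative and skor2-positive *evx2* neurons differed in a large part of their transcriptome. Of 8196 genes tested, 2026 passed the threshold, which is 24.7%, with 944 genes higher (11.5%) and 1082 lower (13.2%) in skor2-negative neurons. DESeq2 called 841 genes, and the fit without the library term 1042. Of the 2026, 2024 changed in the same direction within each library. The calls were made on these same libraries, so this agreement is not independent evidence. Higher levels were frequent among transcription factor genes, and lower levels among genes of synapses, channels and transmitter receptors. The median change over all genes tested was −0.01.

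Of 114 tested members of a list of transcription factor families (homeobox, POU, bHLH and zinc finger), 51 were higher and 18 lower, with a median change of 0.52 on the log2 scale. The V0v genes *evx1* and *esrrb* were both higher. *evx1* stood at 204 and 354 CPM in skor2-negative neurons, against 116 and 131 CPM in skor2-positive neurons (log2 change 1.19 ± 0.17, edgeR adjusted p = 1.32e-05). *esrrb* (identifier LL0000009814) stood at 562 and 789 CPM in skor2-negative neurons, against 134 and 131 CPM in skor2-positive neurons, and the library ranges did not overlap (log2 change 2.36 ± 0.13, edgeR adjusted p = 5.00e-12). Its relative *esrrga* was higher as well, with 139 and 159 CPM in skor2-negative neurons, against 28.6 and 42.7 CPM in skor2-positive neurons (2.10 ± 0.19). *scxa*, which encodes the bHLH factor Scleraxis, and *svild*, which encodes a supervillin-like protein, are further genes by which the study tells V0v subsets apart. *scxa* differed little, at 219 and 216 CPM in skor2-negative neurons, against 169 and 165 CPM in skor2-positive neurons (0.41 ± 0.13), and *svild* was low in both classes, at 16.9 and 21.6 CPM in skor2-negative neurons, against 2.11 and 11.2 CPM in skor2-positive neurons (1.55 ± 0.45). *svild* was found in 6.23% and 9.0% of skor2-negative neurons, against 36.8% and 41.6% of fibroblast-like cells. Whether those cells express it was not tested, so they give no measure of free RNA for this gene. The study chose these markers on the same libraries, so their direction is not independent evidence.

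The genes with the largest increases, among those that met the limits on UMIs and symbols given here for *pax6a*, were for the most part transcription factor genes. *pax6a*, a paired box gene best known from eye and neural progenitors, had the largest increase among genes listed by a gene symbol with at least 20 UMIs in each library of the class where they were higher, with 18.5 and 45.1 CPM in skor2-negative neurons, against 0 and 3.37 CPM in skor2-positive neurons. Only 3 *pax6a* UMIs were counted in the skor2-positive neurons, and the ratio of the pooled levels was 21.4 (95% counting interval 7.15 to 105). *nr4a2b*, an orphan nuclear receptor gene, stood at 108 and 134 CPM in skor2-negative neurons, against 5.29 and 10.1 CPM in skor2-positive neurons (3.99 ± 0.31). *bcl11ba*, a relative of the mammalian corticospinal factor Ctip2, stood at 315 and 672 CPM in skor2-negative neurons, against 52.9 and 38.2 CPM in skor2-positive neurons (3.39 ± 0.21, edgeR adjusted p = 2.34e-11). Its relatives *bcl11aa* (2.04 ± 0.22) and *bcl11ab* (2.01 ± 0.42) rose too, so each of these family members was higher. The forkhead genes *foxp4* (3.45 ± 0.42), *foxp1b* (2.62 ± 0.42) and *foxp2* (2.21 ± 0.43) all rose. The bHLH gene *olig4* stood at 24.1 and 24.0 CPM in skor2-negative neurons, against 2.11 and 2.25 CPM in skor2-positive neurons (3.46 ± 0.54), and the NK homeobox gene *nkx1.2lb* at 109 and 141 CPM in skor2-negative neurons, against 14.8 and 12.4 CPM in skor2-positive neurons (3.24 ± 0.25). *olig4* was uneven among skor2-negative neurons. It was found in 24.4% and 30.1% of a cluster of 78 and 93 cells described below, against 0.474% and 0.943% of the others. In library 2 *foxp4* was among the leading genes of that cluster (log2 ratio 4.07). Other genes among the 10 largest increases encode membrane and cell surface proteins or a presynaptic scaffold. They were *s1pr1*, a receptor for sphingosine-1-phosphate (3.16 ± 0.29), *dscaml1*, an adhesion molecule of the DSCAM family (3.14 ± 0.37), *lhfpl6* (3.41 ± 0.49) and *tspoap1*, a RIM-binding protein, with 3 UMIs in the skor2-positive neurons and a pooled ratio of 10.6 (95% counting interval 3.46 to 53.0). *s1pr1* was found in 39.7% and 67.7% of the same cluster of 78 and 93 cells, against 6.16% and 8.18% of the other skor2-negative neurons.

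Further homeobox and paired box genes were higher. *otpa* (identifier LL0000021123) stood at 1727 and 1997 CPM in skor2-negative neurons, against 509 and 529 CPM in skor2-positive neurons (1.87 ± 0.09, edgeR adjusted p = 3.24e-13), and *otpb* at 92.4 and 162 CPM in skor2-negative neurons, against 16.9 and 18.0 CPM in skor2-positive neurons (2.87 ± 0.22). Both encode Orthopedia factors, and both had higher levels in each library of skor2-negative neurons than in either library of skor2-positive neurons. *pax8* stood at 209 and 271 CPM in skor2-negative neurons, against 29.6 and 43.8 CPM in skor2-positive neurons (2.74 ± 0.17). *pax2b* (2.0 ± 0.21) and *pax2a* (2.26 ± 0.44), its close relatives, which many spinal interneurons express, were also higher, *pax2a* at low levels throughout. The LIM homeobox genes *lhx1a* (0.79 ± 0.09), *lhx1b* (3.03 ± 0.49) and *lhx5* (1.07 ± 0.11), markers of several ventral and dorsal interneuron classes, all rose. *uncx* stood at 301 and 303 CPM in skor2-negative neurons, against 139 and 127 CPM in skor2-positive neurons (1.23 ± 0.15), and the related *uncx4.1* at 29.7 and 52.9 CPM in skor2-negative neurons, against 11.6 and 14.6 CPM in skor2-positive neurons (1.67 ± 0.31). The POU gene *pou3f1* stood at 185 and 316 CPM in skor2-negative neurons, against 56.0 and 52.8 CPM in skor2-positive neurons (2.21 ± 0.18), whereas *pou3f2b* (0.08 ± 0.11) and *pou3f3b* (0.07 ± 0.11) did not pass the threshold. Further factors that were higher were the Scratch repressor gene *scrt1a* (1.36 ± 0.12), *myt1b* (1.26 ± 0.10), *meis2a* (1.13 ± 0.11), *meis2b* (1.28 ± 0.14), *sox11a* (0.71 ± 0.12), *sox11b* (0.75 ± 0.15), *sox4a* (1.03 ± 0.28) and *sox4b* (0.98 ± 0.19). The nuclear receptor gene *nr5a2* did not pass the threshold, at 309 and 389 CPM in skor2-negative neurons, against 287 and 353 CPM in skor2-positive neurons (0.15 ± 0.12), and *nr2f5*, of the same superfamily, was higher (0.75 ± 0.13).

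**Figure D2:**
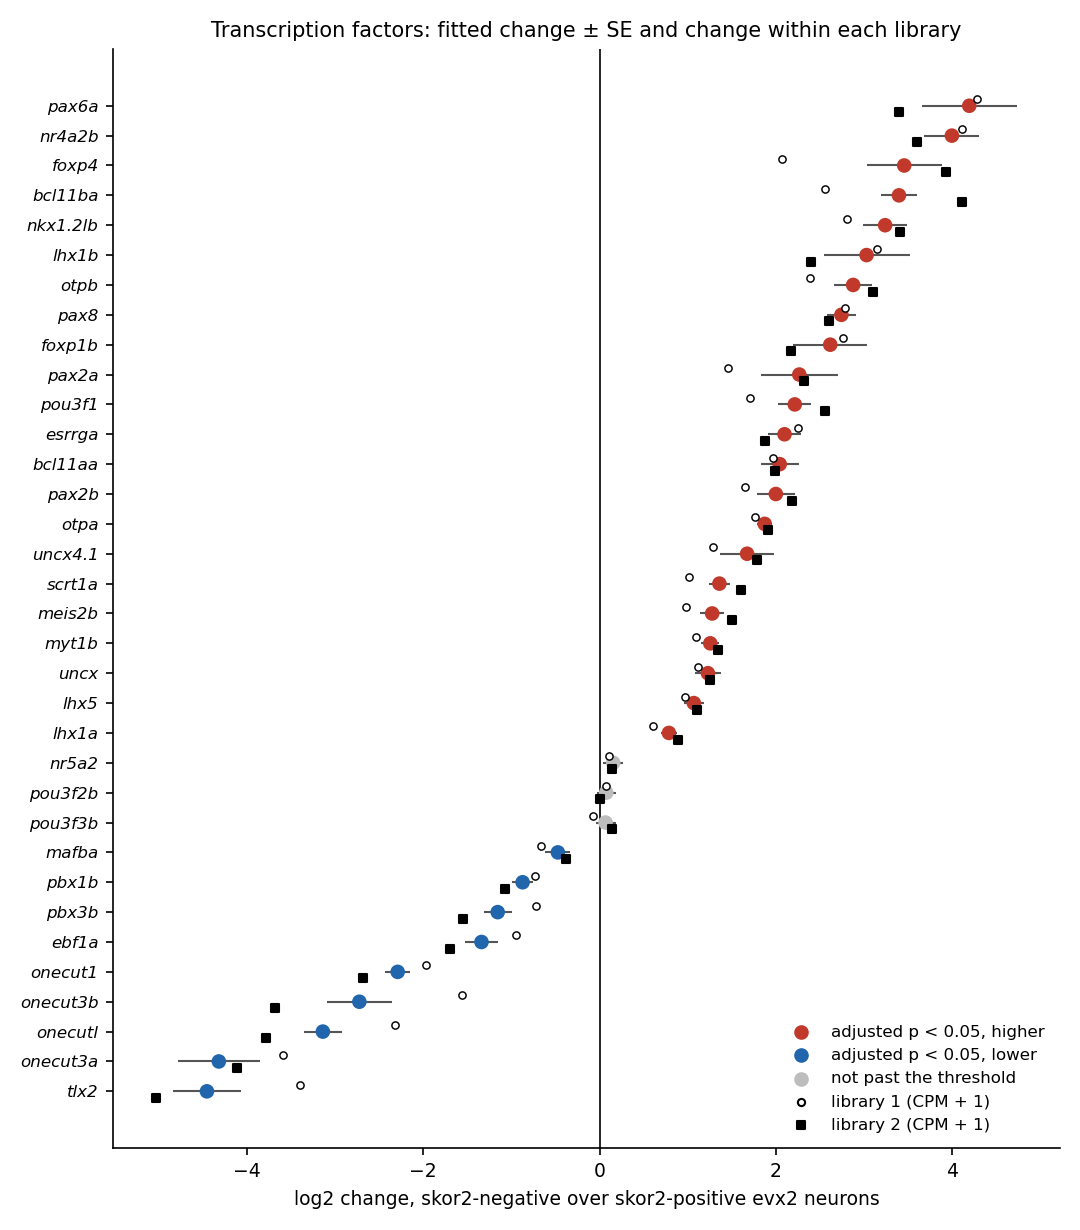
Log2 change of transcription factor genes between skor2-negative and skor2-positive *evx2* neurons, with bars for the SE, small points for the change within each library, and colour for the edgeR call. Changes ran from 4.19 for *pax6a* to −4.45 for *tlx2*. For the called genes shown, the libraries, which also gave the calls, lay on the same side of 0.

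A smaller set of transcription factor genes was lower, and it held several genes of the onecut family. *erfl1*, with 1 UMI in skor2-negative neurons, stood at 0 and 0.490 CPM in skor2-negative neurons, against 52.9 and 97.7 CPM in skor2-positive neurons, a pooled ratio of 245 (95% counting interval 43.3 to 9751) of skor2-positive over skor2-negative neurons. *tlx2*, a homeobox gene of the Tlx family, stood at 6.43 and 1.96 CPM in skor2-negative neurons, against 77.2 and 95.4 CPM in skor2-positive neurons (−4.45 ± 0.38). *onecut1* (identifier LL0000020882) stood at 198 and 102 CPM in skor2-negative neurons, against 777 and 661 CPM in skor2-positive neurons (−2.29 ± 0.14, edgeR adjusted p = 2.80e-11). *onecutl* (−3.14 ± 0.22), *onecut3a* (−4.32 ± 0.46) and *onecut3b* (−2.72 ± 0.37) were lower as well. Onecut factors are cut-homeodomain proteins of differentiating motoneurons and interneurons. The TALE homeobox genes *pbx1b* (−0.87 ± 0.12), *pbx3a* (−2.76 ± 0.43) and *pbx3b* (−1.16 ± 0.16) were lower. Among the Ebf genes, *ebf1a* was lower (−1.34 ± 0.18), *ebf2* higher (1.74 ± 0.34) and *ebf3a* not past the threshold (−0.29 ± 0.14). *ebf2* was found in 15.4% and 43.0% of the cluster of 78 and 93 cells described below, against 0.948% and 0.943% of the other skor2-negative neurons. *mafba* (−0.47 ± 0.14) and *pou2f2a*, listed as LOC100537384 (−0.45 ± 0.13), were slightly lower.

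Genes of synaptic release were lower in skor2-negative neurons. Of 44 tested genes of synaptic vesicles and release, 0 were higher and 23 lower, with a median of −0.58, against −0.01 over all genes. *snap25a* (identifier LL0000029040), which encodes a SNARE protein of vesicle fusion, stood at 1095 and 1087 CPM in skor2-negative neurons, against 2664 and 2725 CPM in skor2-positive neurons (−1.27 ± 0.09, edgeR adjusted p = 1.55e-10). *cplx2l*, a complexin gene whose product clamps and triggers that fusion, stood at 2337 and 2039 CPM in skor2-negative neurons, against 4728 and 4007 CPM in skor2-positive neurons (−0.96 ± 0.08). The synaptotagmin genes *syt9b* (−3.93 ± 0.57) and *syt12* (−2.47 ± 0.29), the synapsin gene *syn2a* (−1.40 ± 0.14), *vamp1* (−1.21 ± 0.14), *vamp2* (−0.57 ± 0.09), *snap25b* (−0.44 ± 0.10) and the synaptophysin gene *sypa* (−1.02 ± 0.13) were lower as well. Of 6 pan-neuronal markers, 5 were lower and 1 higher. The RNA-binding protein gene *elavl3*, which newly born neurons switch on, was the one that was higher, at 2043 and 2721 CPM in skor2-negative neurons, against 1413 and 1686 CPM in skor2-positive neurons (0.64 ± 0.07). Its relative *elavl4* was lower, at 1281 and 1739 CPM in skor2-negative neurons, against 2238 and 2563 CPM in skor2-positive neurons (−0.65 ± 0.08), with *sncb* (−0.85 ± 0.07), *stmn2a* (−0.72 ± 0.09) and *gng3* (−0.46 ± 0.08).

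Neurofilament and receptor genes moved the same way. Of 5 tested neuronal intermediate filament genes, 4 were lower and 0 higher (median −1.37). *neff1* (listed as zgc:65851) stood at 91.6 and 85.3 CPM in skor2-negative neurons, against 437 and 383 CPM in skor2-positive neurons (−2.16 ± 0.15), and the internexin gene *inab* at 249 and 189 CPM in skor2-negative neurons, against 495 and 548 CPM in skor2-positive neurons (−1.24 ± 0.13). The medium neurofilament genes *nefma* (−2.52 ± 0.43) and *nefmb* (−1.37 ± 0.39) were lower at few UMIs. Of 14 ionotropic glutamate receptor genes 7 were lower and 0 higher (median −1.16). The AMPA receptor gene *gria2b* stood at 11.2 and 10.8 CPM in skor2-negative neurons, against 88.8 and 196 CPM in skor2-positive neurons (−3.70 ± 0.26), and the kainate receptor gene *grik5* (−1.82 ± 0.27) and the NMDA receptor gene *grin1a* (−0.85 ± 0.16) were lower too. Both tested metabotropic receptor genes, *grm4* (−5.06 ± 0.39) and *grm8a* (−1.86 ± 0.58), were lower.

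Of 10 GABA and glycine receptor genes 6 were lower and 1 higher (median −1.01). Lower ones included the glycine receptor genes *glra4a* (−2.72 ± 0.38) and *glrbb* (−0.99 ± 0.12). The glycine receptor gene *glra1* was the higher one, at 135 and 215 CPM in skor2-negative neurons, against 102 and 141 CPM in skor2-positive neurons (0.55 ± 0.14). Of 6 acetylcholine receptor genes 5 were lower and 0 higher (median −1.35). *chrna2b*, a nicotinic subunit gene that the study names among the markers of its other V0v subset, stood at 8.84 and 5.88 CPM in skor2-negative neurons, against 111 and 182 CPM in skor2-positive neurons (−4.35 ± 0.30). *chrnb4* (−2.31 ± 0.22), *chrna2a* (−1.33 ± 0.14), *chrna5* (−1.06 ± 0.20) and *chrna7* (−1.37 ± 0.42) were lower too. The other tested markers of that subset, *anos1a* (−3.34 ± 0.23) and *fndc4b* (−2.49 ± 0.48), moved the same way, and since the study chose these markers on the same libraries their direction is not independent evidence.

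Ion channel genes were lower where they passed the threshold, with the exception of *kcnj19a*. Of 28 tested potassium channel genes 11 were lower and 1 higher (median −0.31), and of 24 voltage-gated sodium and calcium channel genes 9 were lower and 0 higher (median −0.54). The tandem-pore channel gene *kcnk9* stood at 3.21 and 0.490 CPM in skor2-negative neurons, against 34.9 and 25.8 CPM in skor2-positive neurons (−4.09 ± 0.61). *kcnma1a*, which encodes the large-conductance calcium-activated channel, stood at 134 and 144 CPM in skor2-negative neurons, against 213 and 323 CPM in skor2-positive neurons (−0.91 ± 0.14), and the Kv3 gene *kcnc3a* was lower by a similar amount (−0.72 ± 0.15). The sodium channel beta subunit genes *scn4ba* (−1.52 ± 0.23), *scn1bb* (−1.83 ± 0.27) and *scn1ba* (−0.69 ± 0.14) and the L-type calcium channel gene *cacna1c* (−2.16 ± 0.46) were lower. The inward rectifier gene *kcnj19a* was higher, at 9.64 and 22.5 CPM in skor2-negative neurons, against 2.11 and 6.74 CPM in skor2-positive neurons (1.88 ± 0.47).

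**Figure D3:**
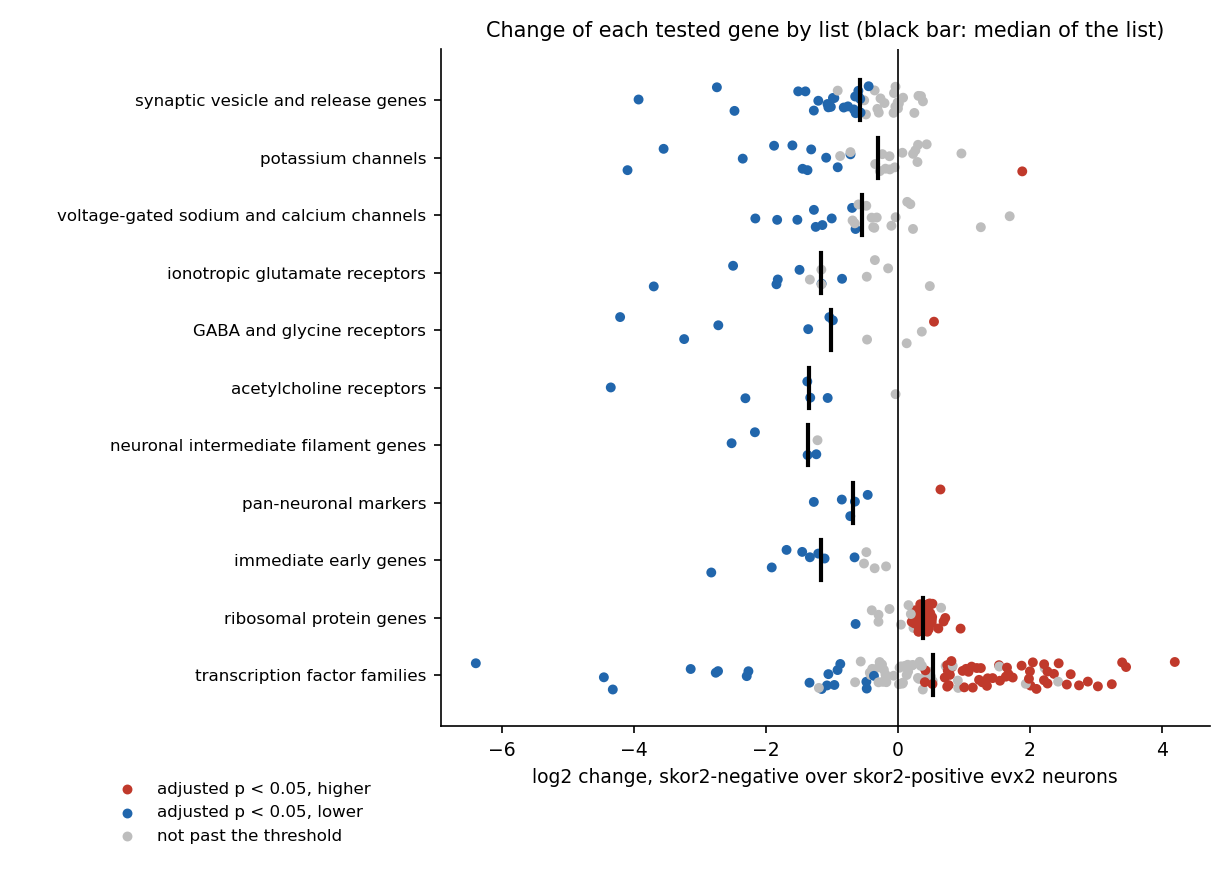
Log2 change between skor2-negative and skor2-positive *evx2* neurons of every tested gene of selected lists, with a black bar at the median of each list. The median of the synaptic vesicle and release genes was −0.58 and that of the ionotropic glutamate receptor genes −1.16, against 0.52 for the transcription factor families.

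Transcripts of inhibitory transmission were present in these glutamatergic cells. Of 4 tested inhibitory transmitter genes, 2 were lower than in skor2-positive neurons, 0 were higher and 2 did not pass the threshold (median −0.74). *slc32a1*, which encodes the vesicular transporter for GABA and glycine, stood at 184 and 167 CPM in skor2-negative neurons, against 304 and 305 CPM in skor2-positive neurons (−0.78 ± 0.13, edgeR adjusted p = 6.36e-05). Without thinning to equal depth, it was found in 30.1% and 28.2% of skor2-negative neurons, against 48.3% and 45.6% of skor2-positive neurons, 64.3% and 72.6% of neurons with *slc6a5* and 75.0% and 84.5% of hmx glycinergic cells. Fibroblast-like cells held it in 7.89% and 1.63%, so the share in skor2-negative neurons was above the background. The GABA transporter gene *slc6a1a* was lower (−2.16 ± 0.43) and the GABA synthesis gene *gad2* stood at 4.02 and 2.45 CPM in skor2-negative neurons, against 4.23 and 5.61 CPM in skor2-positive neurons (−0.71 ± 0.71), which did not pass the threshold. *gad1a*, of the same enzyme family, ran the other way at a few UMIs, with 3.21 and 3.43 CPM in skor2-negative neurons, against 0 and 1.12 CPM in skor2-positive neurons, and did not pass it either. The glycine transporter gene *slc6a9*, too low to be tested, stood at 9.64 and 8.33 CPM in skor2-negative neurons, against 4.23 and 4.49 CPM in skor2-positive neurons. Among cholinergic genes, the choline transporter gene *SLC5A7* had 3 UMIs in skor2-negative neurons and stood at 1.61 and 0.490 CPM in skor2-negative neurons, against 21.1 and 26.9 CPM in skor2-positive neurons, a pooled ratio of 26.2 (95% counting interval 8.41 to 132) of skor2-positive over skor2-negative neurons, and the acetylcholinesterase gene *ache* was lower (−1.45 ± 0.21). Of 11 tested genes of a list of inhibitory and hmx-associated genes, 7 were higher and 0 lower. They were *otpb*, *pax2a* and *meis2a*, whose values are given above, the homeobox genes *hmx3a* (1.63 ± 0.51) and *irx1a* (1.35 ± 0.38), the bHLH gene *bhlhe22* (1.54 ± 0.50) and the zinc finger gene *znf385c*. The last had 5 and 8 UMIs in skor2-negative neurons, against 0 UMIs in skor2-positive neurons. With 3 UMIs over both libraries put in place of that 0, it was 2.42-fold higher. *hmx3a* was low, at 23.3 and 9.80 CPM in skor2-negative neurons, against 4.23 and 5.61 CPM in skor2-positive neurons. In library 1 *hmx3a* was a leading gene of a cluster of 17 skor2-negative neurons described below (log2 ratio 4.06 over the others). The study names 8 of the listed genes from the same libraries, *pax2a*, *meis2a* and *tshz1* were added with results of these libraries known, and the direction of the list is not independent evidence.

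Peptide and secretory granule genes were split. *adcyap1b*, which encodes the neuropeptide PACAP, was higher, at 252 and 268 CPM in skor2-negative neurons, against 127 and 183 CPM in skor2-positive neurons (0.78 ± 0.14). *chgb*, the chromogranin B gene of dense-core vesicles, stood at 13.7 and 5.39 CPM in skor2-negative neurons, against 144 and 213 CPM in skor2-positive neurons (−4.36 ± 0.30), and the secretogranin gene *scg2b* at 44.2 and 18.1 CPM in skor2-negative neurons, against 174 and 219 CPM in skor2-positive neurons (−2.74 ± 0.24). Other genes among the 10 largest decreases encode matrix, membrane and signalling proteins. They were the tenascin gene *tnr*, with 3 UMIs in skor2-negative neurons and a pooled ratio of 47.7 (95% counting interval 15.7 to 236) of skor2-positive over skor2-negative neurons, *plppr3b*, also with 3 UMIs and a ratio of 36.4 (95% counting interval 11.9 to 181), the Ras-like gene *rergla* (−5.34 ± 0.37) and the sialyltransferase gene *st6galnac5a* (−4.71 ± 0.59). Immediate early genes, which neurons switch on after activity or stress, were lower: of 12 tested, 8 were lower and 0 higher (median −1.16). *fosab* stood at 141 and 90.2 CPM in skor2-negative neurons, against 307 and 322 CPM in skor2-positive neurons (−1.45 ± 0.18) and *ier2b* at 96.4 and 81.3 CPM in skor2-negative neurons, against 164 and 251 CPM in skor2-positive neurons (−1.21 ± 0.16). Of 85 ribosomal protein genes 75 were higher and 1 lower (median 0.37), but 2 were higher and 0 lower without the library term.

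Guidance and adhesion genes went in both directions. Of 53 tested axon guidance genes 8 were higher and 13 lower (median 0.08), and of 31 cadherin and protocadherin genes 3 were higher and 6 lower (median −0.13). Over all genes tested, 11.5% were higher and 13.2% lower, and neither list was tested against these shares. *robo3*, a receptor that commissural axons use to cross the midline, stood at 296 and 411 CPM in skor2-negative neurons, against 111 and 117 CPM in skor2-positive neurons (1.66 ± 0.16, edgeR adjusted p = 1.93e-08). *robo2*, whose product mediates repulsion by Slit proteins, was lower at 172 and 229.8 CPM in skor2-negative neurons, against 302 and 375 CPM in skor2-positive neurons (−0.73 ± 0.12), and so was the ligand gene *slit1b* (−3.01 ± 0.35). The Robo3 ligand genes *nell2b* (−1.94 ± 0.13) and *nell2a* (−1.66 ± 0.24) were lower, opposite to the receptor gene. *efnb3b*, an ephrin gene, was higher (1.13 ± 0.23). Of the adhesion genes, *pcdh11* was higher (2.44 ± 0.62), while *pcdh10a* (−3.46 ± 0.32), *pcdh7b* (−1.88 ± 0.24) and the contactin gene *cntn5* (−2.72 ± 0.30) were lower.

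Hox genes, which record position along the body axis, were counted by paralogue group and by gene cluster. Of 36 tested Hox genes 8 were higher and 8 lower. The shares over all genes tested were 11.5% higher and 13.2% lower. Neither the Hox list nor its groups and clusters were tested against these shares. In groups 6 to 9, 6 of 13 were higher and 2 lower (median 0.34), and in groups 10 to 13, 1 of 9 was higher and 5 lower (median −0.78). Groups 1 to 5 held 1 higher and 1 lower gene of 14 (median 0.09). *hoxb9a* stood at 1212 and 1676 CPM in skor2-negative neurons, against 749 and 681 CPM in skor2-positive neurons (1.04 ± 0.10), *hoxa9a* at 783 and 958 CPM in skor2-negative neurons, against 436 and 429 CPM in skor2-positive neurons (1.03 ± 0.10) and *hoxb8a* at 596 and 1055 CPM in skor2-negative neurons, against 372 and 401 CPM in skor2-positive neurons (1.08 ± 0.12). Among the posterior groups, *hoxc10a* stood at 57.9 and 94.6 CPM in skor2-negative neurons, against 132 and 203 CPM in skor2-positive neurons (−1.11 ± 0.15) and *hoxa11b* at 119.7 and 152 CPM in skor2-negative neurons, against 191 and 291 CPM in skor2-positive neurons (−0.79 ± 0.13), with *hoxd10a* (−0.78 ± 0.15) and *hoxd11a* (−0.91 ± 0.21) lower too. Paralogues of 1 group could differ, since *hoxa9b* was lower (−1.28 ± 0.13) while *hoxa9a*, *hoxb9a* and *hoxc9a* (0.58 ± 0.11) were higher. Most of the higher genes were of the hoxb clusters. Beside *hoxb8a* and *hoxb9a* they were *hoxb3a* (0.44 ± 0.14), *hoxb6a* (1.35 ± 0.28), *hoxb8b* (1.37 ± 0.26) and *hoxb10a* (0.43 ± 0.13). No tested hoxb gene was lower, and all lower genes were of the hoxa, hoxc and hoxd clusters.

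**Figure D4:**
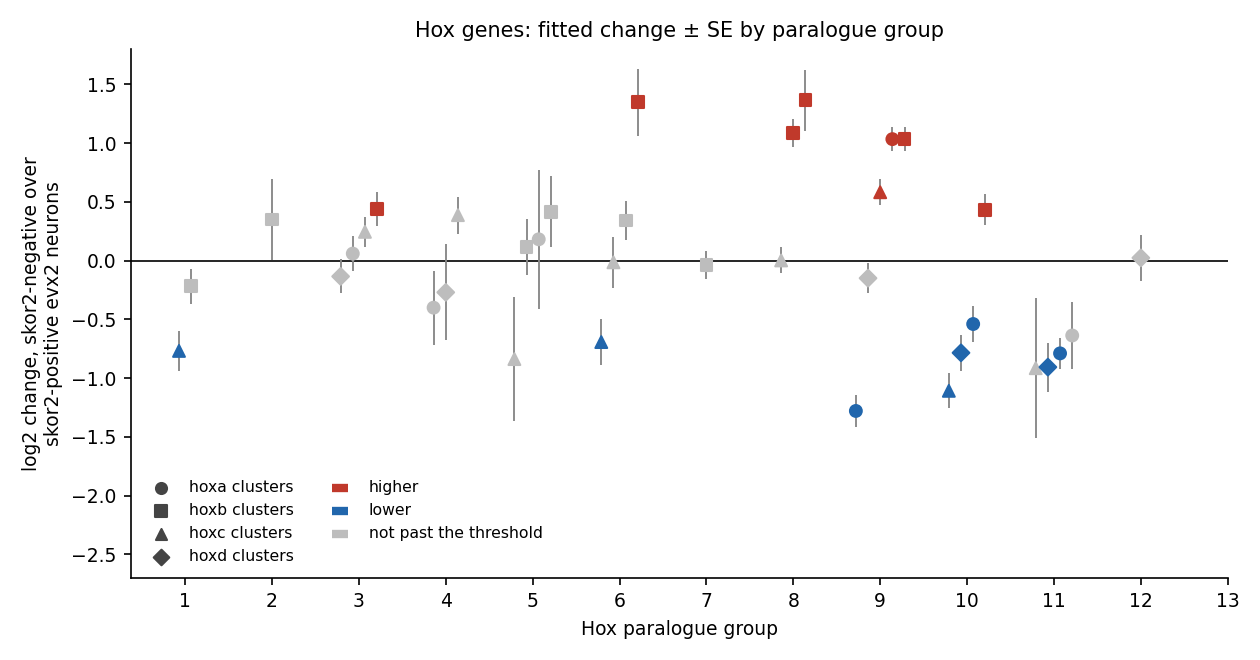
Log2 change of the 36 tested Hox genes between skor2-negative and skor2-positive *evx2* neurons, by paralogue group, with bars for the SE and filled points for genes past the edgeR threshold. Groups 6 to 9 held 6 higher and 2 lower genes and groups 10 to 13 held 1 higher and 5 lower genes. The shares over all genes tested were 11.5% higher and 13.2% lower.

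Few markers of other cell types were expressed well enough to be tested. Lists for V2a, V2b and KA, V3, dI6 and dI4, dorsal excitatory and Rohon-Beard neurons and for notochord held no tested gene. Of the 13 tested markers of V1 neurons, fibroblasts, muscle, blood and glia edgeR called 0, with 1 at an unadjusted p under 0.05, and DESeq2 called 0. The summed level of the fibroblast markers was 2.41 and 51.9 CPM in skor2-negative neurons, against 9.52 and 33.7 CPM in skor2-positive neurons, and that of the muscle markers 452 and 467 CPM, against 422 and 467 CPM. Of the motoneuron list, *mnx2b* was higher, at 14.5 and 17.1 CPM in skor2-negative neurons, against 1.06 and 0 CPM in skor2-positive neurons, with 1 UMI in skor2-positive neurons and a pooled ratio of 29.6 (95% counting interval 5.09 to 1192), while *mnx1* and *mnx2a* were at 0 and *isl1a* (listed as isl1) stood at 0 and 0.980 CPM in skor2-negative neurons. Of the progenitor list, *sox3* was higher, at 26.5 and 16.7 CPM in skor2-negative neurons, against 8.46 and 2.25 CPM in skor2-positive neurons (1.98 ± 0.46). In library 1 *sox3* was among the leading genes of the cluster of 78 cells described below (log2 ratio 3.19). Of 8 tested heat-shock genes 3 were lower and 0 higher, and the libraries differed more than the classes did in *hsp70l*, at 4492 and 28.4 CPM in skor2-negative neurons, against 6133 and 28.1 CPM in skor2-positive neurons.

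Because *snap25a* was found in 70.6% and 75.7% of skor2-negative neurons, against 97.2% and 98.9% of skor2-positive neurons, the comparison was repeated with cells that held a *snap25a* UMI, an alternative chosen after seeing the data. Then 1538 of 8030 genes passed the threshold, and of the 2001 earlier calls that were tested again 1471 were made with the same sign (73.5%). Of 42 synaptic vesicle and release genes, 0 were higher and 18 lower (median −0.40), and of 112 genes of the transcription factor families 39 were higher and 16 lower (median 0.31). *bcl11ba*, *otpa*, *pax8* and *esrrb* stayed higher and *onecut1* stayed lower, while *pax2a*, *foxp2*, *uncx4.1*, *sox4a*, *pou2f2a*, *nefmb*, *snap25b*, *chrna7* and *kcnj19a* no longer passed the threshold. *nr5a2* then passed it as higher (log2 change 0.47) and *ebf3a* as lower (−1.03) in skor2-negative neurons.

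Several of the calls above rested on the way the sums were fitted or the cells were chosen. DESeq2 did not call *scxa*, *svild*, *sox3*, *sox4a*, *mafba*, *pou2f2a*, *nefma*, *nefmb*, *grm8a*, *glra1*, *chrna7*, *slc6a1a*, *kcnj19a*, *cacna1c*, *hoxd11a* and *pcdh11*. Without the library term the calls of *scxa*, *svild*, *pax2a*, *lhx1a*, *sox4a*, *sox4b*, *pbx1b*, *mafba*, *pou2f2a*, *nefmb*, *elavl3*, *elavl4*, *gng3*, *vamp2*, *snap25b*, *grm8a*, *glra1*, *chrna7*, *scn1ba*, *hoxd11a* and *hoxc9a* were lost. When the classes were chosen on one part of the UMIs and tested on the other, the genes among those named above that lost their call were *foxp2*, *sox4a*, *mafba*, *pou2f2a*, *nefmb*, *snap25b*, *ache*, *kcnj19a*, *hoxd10a*, *hoxd11a*, *hoxc9a* and *adcyap1b*. After thinning every cell to 2000 UMIs, which left fewer cells in each class, *scxa*, *pax2a*, *bcl11aa*, *foxp2*, *sox11a*, *sox4a*, *sox4b*, *pbx1b*, *mafba*, *pou2f2a*, *nefmb*, *snap25b*, *grik5*, *glra1*, *chrna2a*, *ache*, *scn1ba*, *hoxd11a*, *hoxa11b*, *hoxd10a*, *robo2* and *efnb3b* did not pass the threshold.

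Fewer genes separated the skor2-negative neurons from the *evx2* neurons with *slc6a5*. Of 8196 genes tested 62 passed the threshold (0.756%), 25 higher (0.305%) and 37 lower (0.451%) in skor2-negative neurons. The sums of neurons with *slc6a5* came from 56 and 106 cells, and small differences were not detectable at that depth. Of 114 tested genes of the transcription factor families 14 were lower and 2 higher in skor2-negative neurons, and the 44 synaptic vesicle and release genes and the 6 pan-neuronal markers had 0 calls by edgeR and by DESeq2, with 3 and 2 at an unadjusted p under 0.05.

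Several genes that set skor2-negative apart from skor2-positive neurons were higher still in neurons with *slc6a5*. *otpb* stood at 92.4 and 162 CPM in skor2-negative neurons, against 419.6 and 581 CPM in neurons with *slc6a5* (−1.98 ± 0.14), and *otpa* at 1727 and 1997 CPM in skor2-negative neurons, against 3356 and 4401 CPM in neurons with *slc6a5* (−1.07 ± 0.08, edgeR adjusted p = 6.47e-09). *pax2a* stood at 10.4 and 31.8 CPM in skor2-negative neurons, against 88.5 and 159 CPM in neurons with *slc6a5* (−2.49 ± 0.24), with *pax8* (−0.91 ± 0.13) and *nkx1.2lb* (−1.66 ± 0.16) lower in skor2-negative neurons as well. *esrrb* stood at 562 and 789 CPM in skor2-negative neurons, against 939 and 1357 CPM in neurons with *slc6a5* (−0.78 ± 0.11), so the level of this marker was higher in the neurons that also held *slc6a5*. Other lower genes were *prdm8b*, which encodes a PR-domain factor (−4.45 ± 0.40), the bHLH gene *bhlhe22* (−2.34 ± 0.33), the zinc finger genes *znf385a* (−3.39 ± 0.48) and *znf385c* (−3.15 ± 0.45), *foxn3* (−1.20 ± 0.18), *foxp2* (−1.65 ± 0.29), *auts2b* (−1.52 ± 0.13), *sash1a* (−1.05 ± 0.22), *pbx3b* (−1.03 ± 0.18), *sox11a* (−0.96 ± 0.12), *esrrga* (−0.72 ± 0.16) and *nr2f5* (−0.60 ± 0.14). *slc32a1*, which the rule did not use, stood at 184 and 167 CPM in skor2-negative neurons, against 393 and 505 CPM in neurons with *slc6a5* (−1.39 ± 0.14, edgeR adjusted p = 6.12e-07). The potassium channel beta subunit gene *kcnab2a* (−3.60 ± 0.33) and *cacna2d3*, an auxiliary calcium channel subunit gene with 1 UMI in skor2-negative neurons and a pooled ratio of 41.3 (95% counting interval 5.88 to 1794) of neurons with *slc6a5* over skor2-negative neurons, were lower.

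Genes higher in skor2-negative neurons were fewer and belonged to other functions. *PCP4*, whose product binds calmodulin, had 32 and 28 UMIs in skor2-negative neurons, against 0 UMIs in neurons with *slc6a5*, and was at least 4.84-fold higher against a floor of 3 UMIs over both libraries. In library 1 it was the leading gene of a cluster of 17 skor2-negative neurons described below, at a log2 ratio of 5.08 over the others. Its level is thus not a trait of the class as a whole there. *gch2*, which encodes a GTP cyclohydrolase, stood at 137 and 277 CPM in skor2-negative neurons, against 3.85 and 24.3 CPM in neurons with *slc6a5* (4.01 ± 0.71). It was uneven as well. In library 2 *gch2* was the leading gene of a cluster of 93 skor2-negative neurons, at a log2 ratio of 5.34 over the others. *pax6a* was higher here too (2.82 ± 0.56). The tubulin-binding protein gene *stmn4* stood at 168 and 98.0 CPM in skor2-negative neurons, against 19.2 and 48.6 CPM in neurons with *slc6a5* (1.68 ± 0.29) and *neff1* (zgc:65851) at 91.6 and 85.3 CPM in skor2-negative neurons, against 34.6 and 29.9 CPM in neurons with *slc6a5* (1.45 ± 0.30). *neff1* was uneven among skor2-negative neurons. In library 1 it was found in 41.2% of the cluster of 17 cells, against 11.4% of the others, and in 35.7% of a cluster of 56 cells, against 7.73%. In library 2 it was found in 73.0% of a cluster of 37 cells, against 10.4%. *stmn4* was among the leading genes of that cluster (log2 ratio 2.70) and of a cluster of 53 cells in library 2 (1.94). *adcyap1b* stood at 252 and 268 CPM in skor2-negative neurons, against 112 and 116 CPM in neurons with *slc6a5* (1.21 ± 0.18, edgeR adjusted p = 2.15e-04), so this peptide gene was higher in skor2-negative neurons than in both other *evx2* classes. The neurexophilin genes *nxph3* (1.36 ± 0.22) and *nxph1* (1.21 ± 0.29), whose products bind neurexins, the postsynaptic adhesion gene *lrrtm1* (1.07 ± 0.21), the sodium pump gene *atp1a3b* (1.67 ± 0.39), the neuritin gene *nrn1a* (0.92 ± 0.13), the splicing regulator gene *rbfox1* (0.82 ± 0.17) and the growth cone gene *gap43* (0.53 ± 0.08) were also higher. Of these, *atp1a3b* was among the leading genes of the cluster of 56 cells in library 1 (log2 ratio 2.55). *evx1* (0.44 ± 0.19), *bcl11ba* (0.10 ± 0.17), *nr5a2* (0.24 ± 0.13) and *snap25a* (0.27 ± 0.10) did not pass the threshold.

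This comparison depended on how it was fitted. Without the library term 8 genes passed the threshold, with DESeq2 29, with no filter on low counts 114, and with the sums of these 2 classes alone 145. The 8 genes were *otpb*, *slc32a1*, *kcnab2a*, *prdm8b*, *auts2b*, *nkx1.2lb*, *znf385a* and *adcyap1b*. Of them, *otpb*, *slc32a1*, *kcnab2a* and *prdm8b* passed the threshold in every alternative fit.

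The hmx glycinergic cells carry inhibitory markers and neither *evx2* nor *slc17a6* transcripts. Of 8194 genes tested 1670 passed the threshold (20.4%), 756 higher (9.23%) and 914 lower (11.2%) in skor2-negative neurons. Of these, 1664 changed in the same direction within each library, on which the calls were also made. DESeq2 called 644 genes, and the fit without the library term 760. Genes of inhibitory interneurons were among the largest decreases, and the PACAP gene *adcyap1b* was the largest increase of the named genes. Of 112 genes of the transcription factor families 25 were higher and 46 lower (median −0.24).

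The V0v gene *evx1* stood at 204 and 354 CPM in skor2-negative neurons, against 110.4 and 78.3 CPM in hmx glycinergic cells (1.57 ± 0.20), and *esrrb* differed less, at 562 and 789 CPM in skor2-negative neurons, against 430.4 and 471 CPM in hmx glycinergic cells (0.56 ± 0.12). *nr5a2*, the nuclear receptor gene that passed the threshold in neither of the other comparisons, stood at 309 and 389 CPM in skor2-negative neurons, against 33.1 and 50.2 CPM in hmx glycinergic cells (3.04 ± 0.17, edgeR adjusted p = 3.59e-12). *bcl11ba* (2.30 ± 0.20) and the POU genes *pou3f1* (2.39 ± 0.21), *pou3f2b* (1.51 ± 0.13) and *pou3f3b* (2.28 ± 0.15) were higher. So were *mafba* (1.05 ± 0.17), *ebf3a* (1.04 ± 0.17), *nr2f5* (0.82 ± 0.15), *scxa* (0.86 ± 0.15), *scrt1a* (0.63 ± 0.12), *uncx4.1* (1.42 ± 0.33), *pax6a* (2.97 ± 0.51) and the nuclear receptor gene *roraa* (2.75 ± 0.29). *adcyap1b* stood at 252 and 268 CPM in skor2-negative neurons, against 14.7 and 11.8 CPM in hmx glycinergic cells (4.29 ± 0.25), and *nrn1a* at 835 and 1179 CPM in skor2-negative neurons, against 114 and 78.3 CPM in hmx glycinergic cells (3.39 ± 0.16, edgeR adjusted p = 1.84e-13). *robo3* was higher as well (1.00 ± 0.16). The other largest increases were *tagln3b*, a transgelin gene with 3 UMIs in hmx glycinergic cells and a pooled ratio of 19.2 (95% counting interval 6.45 to 94.1), the thioredoxin gene *txn*, at 644 and 581 CPM in skor2-negative neurons, against 34.9 and 41.4 CPM in hmx glycinergic cells (3.97 ± 0.29), the secreted ligand gene *bmp16* with 3 UMIs and a ratio of 15.7 (95% counting interval 5.26 to 77.3), *pacs2* with 2 UMIs and a ratio of 15.8 (95% counting interval 4.24 to 132) and the potassium channel gene *kcnh8* (3.23 ± 0.56). Several of these genes were uneven among skor2-negative neurons. In library 1 *txn* (log2 ratio 2.99), *tagln3b* (2.75) and *kcnh8* (2.32) were among the leading genes of the cluster of 56 cells. In library 2 *txn* (2.36) was among those of a cluster of 53 cells and *bmp16* (2.69) of the cluster of 37.

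Of 9 tested genes of the list of inhibitory and hmx-associated genes 8 were lower and 0 higher (median −2.76), and of 4 inhibitory transmitter genes 3 were lower and 0 higher. The first list was drawn up with results of these libraries known, so its direction against hmx cells is not independent evidence. *slc32a1* stood at 184 and 167 CPM in skor2-negative neurons, against 572 and 727 CPM in hmx glycinergic cells (−1.91 ± 0.13), and *gad2* at 4.02 and 2.45 CPM in skor2-negative neurons, against 27.6 and 72.4 CPM in hmx glycinergic cells (−4.05 ± 0.46). Both tested V1 markers were lower: *en1b*, the Engrailed gene of V1 interneurons, stood at 0.804 and 1.96 CPM in skor2-negative neurons, against 270.4 and 524 CPM in hmx glycinergic cells (−8.02 ± 0.27, edgeR adjusted p = 1.49e-15), and *foxd3* at 0 and 1.96 CPM in skor2-negative neurons, against 151 and 279 CPM in hmx glycinergic cells (−7.43 ± 0.34). Skor2-negative neurons were thus almost free of *en1b*, which was found in 0.346% and 0.730% of them. The study describes *hmx2* and *hmx3a* in V1 and dI2 interneurons, and the rule for hmx glycinergic cells did not exclude cells with *en1b*. The part of V1 neurons in that class was not tested. *pax2a* stood at 10.4 and 31.8 CPM in skor2-negative neurons, against 121 and 372 CPM in hmx glycinergic cells (−3.52 ± 0.20) and *bhlhe22* at 22.5 and 29.9 CPM in skor2-negative neurons, against 283 and 776 CPM in hmx glycinergic cells (−4.34 ± 0.24), and *onecut1* (−2.48 ± 0.15), *otpb* (−2.28 ± 0.13), *otpa* (−1.01 ± 0.08), *znf385c* (−5.42 ± 0.30), *uncx* (−0.48 ± 0.14), *pou2f2a* (LOC100537384, −1.31 ± 0.13) and *pou2f2b* (listed as pou2f2a, −0.72 ± 0.09) were lower. *adarb2*, an RNA-editing family gene, had 0 UMIs in skor2-negative neurons in both libraries. With 3 UMIs over both libraries put in place of that 0, it was 114-fold lower than in hmx glycinergic cells. The lower limit of the 95% counting interval of the pooled ratio was 91.3. The neuropeptide Y receptor gene *npy2r* also had 0 UMIs and was 84.3-fold lower with the same 3 UMIs put in. Of 7 tested monoamine and peptide transmitter genes 5 were lower and 1 higher (median −3.81). Among the lower ones were the enkephalin precursor gene *penkb* at 0.804 and 2.94 CPM in skor2-negative neurons, against 826 and 194 CPM in hmx glycinergic cells (−7.57 ± 0.33) and the nociceptin precursor gene *pnoca* at 6.43 and 2.45 CPM in skor2-negative neurons, against 127 and 90.1 CPM in hmx glycinergic cells (−4.69 ± 0.40). *cacna2d3* had 1 UMI in skor2-negative neurons, a pooled ratio of 315 (95% counting interval 55.4 to 12545) of hmx glycinergic cells over skor2-negative neurons. The zinc transporter gene *slc30a2* (−7.05 ± 0.40), the semaphorin gene *sema3b* (−5.34 ± 0.38), the neurexin gene *nrxn3a* (−5.31 ± 0.26) and the serotonin receptor gene *htr1aa*, with 2 UMIs in skor2-negative neurons and a ratio of 48.5 (95% counting interval 12.5 to 415) of hmx glycinergic cells over skor2-negative neurons, were lower too.

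The medium neurofilament genes were lower, *nefma* at 19.3 and 5.88 CPM in skor2-negative neurons, against 175 and 66.5 CPM in hmx glycinergic cells (−3.34 ± 0.41) and *nefmb* at 14.5 and 4.90 CPM in skor2-negative neurons, against 219 and 47.3 CPM in hmx glycinergic cells (−3.70 ± 0.31). *neff1* (zgc:65851) stood at 91.6 and 85.3 CPM in skor2-negative neurons, against 79.1 and 32.5 CPM in hmx glycinergic cells (0.71 ± 0.23), with a log2 change of 0.21 within library 1 and 1.36 within library 2, and its call was lost with DESeq2 and without the library term. *inab* did not pass the threshold (−0.37 ± 0.14). *snap25a* was lower (−0.66 ± 0.09). *pax8* (−0.20 ± 0.13), *zfhx3b* (listed as zfhx3, 0.06 ± 0.09), *elavl3* (0.18 ± 0.07) and *elavl4* (0.11 ± 0.08) did not pass the threshold, and the estimate for *lhx5* lay at 0 with an SE of 0.11. The calls of *esrrb* and *uncx* were lost without the library term, after thinning and when the classes were chosen on one part of the UMIs.

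The skor2-negative neurons were not uniform. A UMI of *snap25a* divided them, after thinning to 2000 UMIs, into 175 and 269 cells with and 112 and 140 cells without it, with median depths before thinning of 4486 and 5111 UMIs against 3960.5 and 4659. Several genes that were higher than in skor2-positive neurons were found more often in the cells without *snap25a*. *robo3* was found in 18.3% and 23.4% of the cells with *snap25a* and 60.7% and 73.6% of those without. For *bcl11ba* the shares were 25.1% and 45.4% with and 51.8% and 82.9% without. For *uncx* the shares were 25.7% and 26.4% with and 58.0% and 58.6% without. The shares of *pax8* were 20.6% and 24.9% with and 41.1% and 56.4% without *snap25a*, and those of *otpb* 5.71% and 7.06% with and 23.2% and 36.4% without. *evx1* was found in 22.3% and 37.9% with and 38.4% and 67.1% without. *ebf3a*, which did not pass the threshold against skor2-positive neurons, was found in 18.3% and 14.9% with and 42.9% and 56.4% without. *hes6*, a bHLH gene of neurogenesis, stood at 14.3% and 15.6% with and 41.1% and 49.3% without. Other genes lay in the cells with *snap25a*, among them the genes of a nuclear receptor, a bHLH factor and cytoskeletal proteins. *nr5a2* was found in 41.1% and 50.2% of the cells with *snap25a* and 16.1% and 17.1% of those without. For *scxa* the shares were 37.1% and 36.1% with and 12.5% and 7.14% without. For *onecut1* the shares were 33.7% and 19.7% with and 8.93% and 2.14% without. The internexin gene *inab* was found in 42.3% and 28.6% with and 6.25% and 2.14% without, and the stathmin gene *stmn2a* in 76.0% and 69.1% with and 35.7% and 27.1% without. *esrrb* was spread over both, with 60.6% and 69.5% of the cells with *snap25a* and 58.9% and 52.9% of those without. Each pair is a description within the same cells and was not tested.

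**Figure D5:**
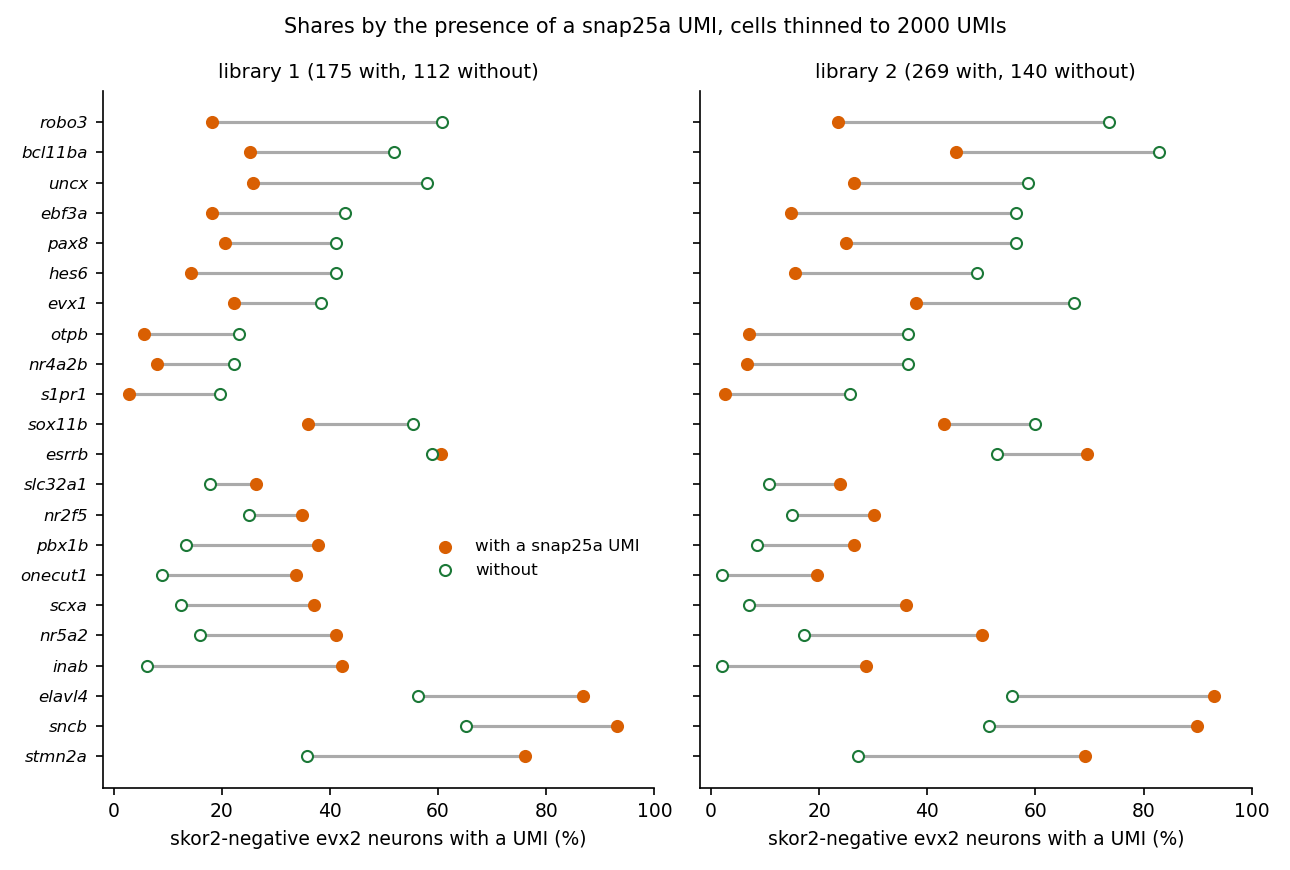
Share of skor2-negative *evx2* neurons with a UMI of each gene (%, cells thinned to 2000 UMIs), filled points for cells with and open points for cells without a *snap25a* UMI, in library 1 (left) and library 2 (right). *robo3* stood at 18.3% and 23.4% with and 60.7% and 73.6% without *snap25a* in libraries 1 and 2, and *nr5a2* at 41.1% and 50.2% with and 16.1% and 17.1% without.

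*bcl11ba* and *nr5a2* were unevenly shared too, in the same thinned cells. *nr5a2* was found in 16.7% and 18.5% of the cells with *bcl11ba* and 39.5% and 67.3% of the cells without it, and *onecut1* in 3.92% and 1.26% with and 35.1% and 31.0% without it. *pou3f1* and *pax8* went with *bcl11ba*, at 47.1% and 51.7% against 16.8% and 23.4% for *pou3f1* and 45.1% and 46.6% against 19.5% and 20.5% for *pax8*. Cells with *bcl11ba* thus seldom held *onecut1*, in both libraries.

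Clustering of the cells of each library on their own, added after seeing the data and used as description only, gave 6 clusters in library 1 and 7 in library 2. Clusters of the libraries were matched by the genes shared among their 50 leading genes. Shares in the clusters are of unthinned cells, unlike those of the split by *snap25a*. The closest match, with 26 of 50 genes (52%) shared, was a cluster of 78 cells in library 1 (27.0%) and 93 cells in library 2 (22.6%), led by *olig4*, *otpb*, *s1pr1*, *ebf2* and the Notch target gene *her15.1*. In it *robo3* was found in 88.5% and 93.5% of the cells, *bcl11ba* in 74.4% and 95.7%, *snap25a* in 15.4% and 24.7%, and *nr5a2* in 17.9% and 7.53%. A second match, with 17 of 50 genes (34%), was a cluster of 56 cells in library 1 (19.4%) and 37 in library 2 (9.0%), with *rab6ba*, *crim1*, the cerebellin gene *cbln1* and the thyrotropin-releasing hormone receptor gene *trhra* in the lead. Its shares ran opposite to those of the first, since *snap25a* was found in 100% and 100%, *onecut1* in 82.1% and 89.2%, *inab* in 94.6% and 94.6%, *nr5a2* in 85.7% and 86.5%, and *bcl11ba* in 0% and 0% of the cells. The same cluster of library 1 shared 11 of 50 genes (22%) with a cluster of 53 cells in library 2. A further match, with 10 of 50 genes (20%), was a cluster of 34 cells in library 1 and 83 in library 2 with *lhfpl6*, *kif26ba* and *myo16* among its leading genes, in which *bcl11ba* was found in 97.1% and 97.6% and *pou3f1* in 73.5% and 90.4%. *esrrb* was found in 69.2% and 69.9% of the cells of the first, 60.7% and 54.1% of the second match and 85.3% and 98.8% of the further match.

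Some clusters had features of cells outside the rule. A cluster of 17 cells in library 1 (5.88%), which shared 10 of 50 leading genes (20%) with the cluster of 37 cells in library 2, held *esrrb* in 29.4%, *anos1a* in 35.3% and *chrna2b* in 29.4% of its cells, beside 4.50% and 4.14% of all skor2-negative neurons and 33.2% and 34.6% of skor2-positive neurons for *anos1a*. In library 2 a cluster of 31 cells (7.54%) was led by the posterior Hox genes *hoxd12a*, *hoxd11a*, *hoxa11b* and *hoxd10a*.

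The libraries differed within the skor2-negative neurons. *evx1* was found in 28.6% and 47.9% of the thinned cells of libraries 1 and 2, *bcl11ba* in 35.5% and 58.2%, and *onecut1* in 24.0% and 13.7%. *esrrb* (59.9% and 63.8%) and *slc32a1* (23.0% and 19.3%) differed less. *hsp70l*, a heat-shock gene, was found in 97.6% and 10.9% of the unthinned cells. The libraries carry different titles, and the part of that difference in these values was not tested.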

How the data were processed

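Single-cell RNA-seq was done on EGFP-positive trunk cells of zebrafish at 48 hpf in 2 libraries. The authors made the deposited matrices of raw UMI counts per gene and called cell with Cell Ranger 4.0.0 against the Lawson Lab zebrafish transcriptome annotation and went on in Partek, whose output was not used here, and the genome build is not given in the sources used here. Other libraries, which the study left out because of notochord cells, were not analysed here. The deposited counts were read as whole numbers, and the limits of the study were applied, so that kept cells had 500 to 2500 detected genes, no more than 12000 UMIs and a mitochondrial share of UMIs of up to 6%. No doublet caller was run; doublets were reduced only by the sort gates and these upper limits. Depth per cell sets the precision of a share, and a UMI count of 0 in a cell is weak evidence that a gene was off.

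Cells were assigned to 4 classes by UMIs of the rule genes, and fibroblast-like cells (at least 3 collagen UMIs, above the summed pan-neuronal markers) served as background. UMI counts were summed per library and class (8 sums) and tested with edgeR 4.0.16 in R 4.3.3 (TMM, filterByExpr, quasi-likelihood test, two-sided, Benjamini-Hochberg adjustment), without the genes that chose the classes. Each library gave cells to every class, so the sums of 1 library are paired, and the library entered the fit as a block. DESeq2 1.42.0, RLE size factors, no filter, no block, the 2 classes alone, other cell limits, a stricter rule, thinning and count splitting were run as alternatives, and restriction to cells with *snap25a* or with at least 3 of 6 pan-neuronal markers was added after seeing the data. Other tools were numpy 2.4.6, scipy 1.17.1, pandas 2.3.3, matplotlib 3.10.9, scanpy 1.11.5 and igraph 0.11.9. The edgeR script was tested on simulated data.

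Per comparison, the text names the 10 genes with the highest and the 10 with the lowest log2 change past the threshold, with 1 sign in both libraries and at least 20 UMIs per library in the higher class, besides members of the gene lists and genes read in the clusters. Some genes that the rule or the lists hold are not reported here. The members and lists were chosen with earlier results of these data known. Symbols are as deposited, except that zgc:153395 is *skor2*, zgc:65851 is *neff1*, LOC100537384 is *pou2f2a*, pou2f2a is *pou2f2b* and zfhx3 is *zfhx3b*. The list symbols *gal*, *calcb*, *tlx3a*, *hspa1b* and *hspa8b* were not matched.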

Additional observations from a re-analysis of the deposited data

How the results depend on the processing

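The counts of genes past the threshold moved with the processing more than the directions did. Against skor2-positive neurons, 2026 genes passed it. DESeq2 called 841, the fit with no replicate block for the library 1042, a rule of at least 2 UMIs 928 of 4194 tested, thinning to 2000 UMIs 672 of 3569 and count splitting 745 of 3648. Against neurons with *slc6a5*, the count was 62. It was 29 with DESeq2, 8 with no replicate block, 114 with no filter on low counts (66.7% of them higher in skor2-negative neurons, beside 40.3% of the 62), 145 with only these 2 classes, 138 without upper limits, 20 with at least 2 UMIs, 17 with thinning, 39 with count splitting and 94 in cells with *snap25a*. Against hmx glycinergic cells, the count was 1670. It was 644 with DESeq2, 760 with no replicate block, 669 with at least 2 UMIs, 537 with thinning and 646 with count splitting. The number of skor2-negative neurons was 700, and it was 207 with at least 2 UMIs, 349 with thinning and 377 with count splitting. The last 3 settings also tested fewer cells and genes, and the cause of the other shifts was not tested.

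Of the values of named genes under these fits, 1429 kept direction and side of the threshold against skor2-positive neurons, 96 lost the call, 5 gained one and 1 turned direction. Against neurons with *slc6a5* these numbers were 341, 103, 2 and 2, and against hmx glycinergic cells 605, 22, 9 and 0. Against skor2-positive neurons *nefmb* turned to 0.30 with thinning. Against neurons with *slc6a5* and with at least 2 UMIs, *gch2* turned to −1.64 and *cacna2d3* to 0.032. None of these passed the threshold. RLE size factors changed no call of a named gene against the *evx2* classes. With 2 libraries, and with classes that rest on single UMIs, small differences in low genes were not detectable.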
